A study of Oryza sativa Japonica Group with 49 samples.

Results

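The genes described here are nuclear genes of rice (Oryza sativa japonica) for the photosystems of the chloroplast and for the antenna proteins that feed them with light energy. A list of 31 gene models was searched in the RNA-seq count tables, and the 30 models with 1 CPM (counts per 1000000 counts of a library) or more in at least 2 of 31 libraries were kept. Of all 55986 gene models in the tables, 25190 pass the same filter. The kept members fall into 4 classes: 9 Lhcb genes (antenna of photosystem II), 6 Lhca genes (antenna of photosystem I), 6 Psb genes (photosystem II subunits) and 9 Psa genes (photosystem I subunits). The listed Psb model LOC_Os08g02530 reached 1 CPM in 0 libraries, with at most 8 counts in any library, and was left out. The study's tables give a name or description for 10 of the members, and the other 20 are called by their identifier and class.

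In the thylakoid membrane, photosystem II uses light to take electrons from water, and photosystem I lifts them to ferredoxin after they have passed the cytochrome b6-f complex and plastocyanin. Lhcb and Lhca proteins bind chlorophyll a and b and pass the absorbed energy to the reaction centres. Several core subunits are encoded in the chloroplast, but the antenna and many outer subunits are encoded in the nucleus, translated in the cytosol and imported. The transcripts of these nuclear genes are among the most abundant in green leaves, respond to light, and are known to decline in leaves under severe stress or during senescence.

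The libraries come from 2 experiments. In the line experiment, 4-leaf seedlings of onac023, a T-DNA insertion mutant of the NAC transcription factor gene ONAC023 (LOC_Os02g12310) in the Dongjin (DJ) background, were set against DJ-WT, wild-type plants segregating from the heterozygous mutant, under drought and under heat, with 3 libraries per group and no unstressed group. In the stress experiment, ZH11 (Zhonghua 11) seedlings under drought and under heat were set against ZH11 seedlings under normal conditions, DJ seedlings under drought against DJ seedlings under normal conditions (3 libraries per group), and ZH11 panicles under heat against ZH11 panicles under normal conditions (2 libraries per group). The labels describe drought as 7 d without water, to a soil water content below 10%, and heat as 6 h at an air temperature of 45 °C. The methods of the study give other durations, so no result here rests on a duration. The mutant is 1 insertion line. By the study's methods, seedlings for RNA-seq were taken from separate repeats of the treatment, several to a repeat. For panicles nothing read here says what separates the libraries of a group, so p-values there measure a spread that may be technical.

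The libraries held 39789339 to 132110274 counts. The targeted gene ONAC023 had 6, 4 and 9 counts in onac023 under drought, against 257, 222 and 65 in DJ-WT. Under heat it had 0, 2 and 0 counts in onac023, against 105, 126 and 180 in DJ-WT. The DJ-WT libraries did not match their label in full. Of 36 gene models with 1 CPM or more in every ZH11 seedling library and 0.1 CPM or less in every DJ seedling library, the 3 DJ-WT drought libraries each held all 36 at 0.5 CPM or more, the DJ-WT heat libraries 34 to 35, the onac023 libraries 17 to 23 and the DJ seedling libraries 0. Of 54 models with the reverse pattern, the DJ-WT drought libraries held all 54, the DJ-WT heat libraries 42 each, the onac023 libraries 45 to 54 and the ZH11 seedling libraries 0. The libraries labelled DJ-WT and, in part, those labelled onac023 thus carried transcripts seen in ZH11 seedlings and not in DJ seedlings, and results that rest on DJ-WT drought are also given against droughted DJ seedlings. Replicate 1 of DJ-WT under heat also stood apart: among the 6 heat libraries of both lines it had the highest CPM for 28 of the 30 members. The share of all genes with this pattern is not given here. Floral MADS-box genes summed to 1927 to 2315 CPM in the panicle libraries, where all 9 of the list were at 1 CPM or more, and to at most 49.6 CPM in seedlings. A list of 6 root genes summed to at most 26.8 CPM in any library.

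The 30 members together took the largest share of counts in ZH11 seedlings under normal conditions and the smallest in droughted DJ and onac023 seedlings. Their summed share was 1.46, 1.70 and 1.82% in ZH11 seedlings under drought and 3.25, 2.36 and 2.49% under heat, against 8.20, 7.69 and 6.41% under normal conditions. In DJ seedlings it was 0.515, 0.326 and 0.374% under drought, against 4.80, 4.16 and 4.43% under normal conditions. In panicles it was 3.31 and 3.59% under heat, against 3.86 and 2.83% under normal conditions. It was 0.407, 0.374 and 0.444% in onac023 under drought, against 1.16, 1.13 and 1.23% in DJ-WT, and 2.68, 2.32 and 1.88% in onac023 under heat, against 4.24, 2.30 and 2.10% in DJ-WT. The stressed and normal seedling libraries did not overlap in either variety, the drought libraries of onac023 and DJ-WT did not overlap, and the panicle libraries and the heat libraries of both lines did. The onac023 drought libraries lay within the range of the DJ seedling drought libraries. Ordered by group mean, the ranges of neighbouring groups did not overlap between ZH11 and DJ seedlings under normal conditions, between DJ seedlings under normal conditions and heated panicles, between heated onac023 and droughted ZH11 seedlings, between droughted ZH11 and DJ-WT seedlings, or between droughted DJ-WT and onac023 seedlings. The other neighbours, among the panicle and heat groups and between droughted onac023 and DJ seedlings, overlapped. In bulk tissue, fewer photosynthetic cells and less transcript per cell cannot be told apart.

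**Figure D1:**
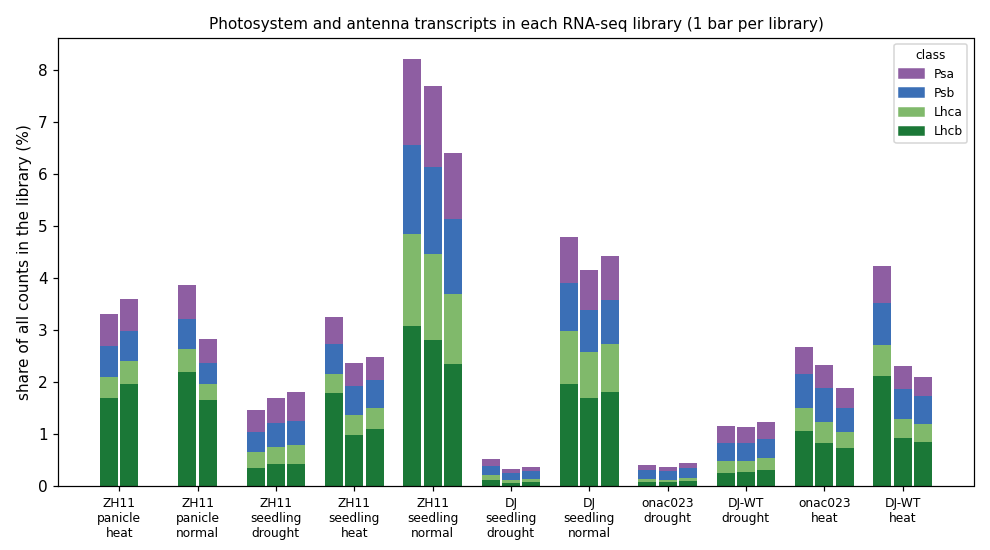
Share of all counts of a library (%, vertical axis) taken by the 30 members, with 1 bar per RNA-seq library, groups along the horizontal axis and colours for the 4 classes. The ZH11 seedling libraries under normal conditions reach 6.41 to 8.20%, and the drought libraries of DJ seedlings and onac023 stay between 0.326 and 0.515%.

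The mean CPM was highest in ZH11 seedlings under normal conditions for 24 of 30 members. The other members were highest in DJ seedlings under normal conditions (2), in panicles under heat (2) or in panicles under normal conditions (2). It was lowest in onac023 under drought for 16 members, in DJ seedlings under drought for 13, and in ZH11 seedlings under normal conditions for 1, the Psb gene LOC_Os07g05360. For the tests, a member was called when its adjusted p (edgeR quasi-likelihood test, Benjamini-Hochberg over all genes tested) was under 0.05 and its fold change over 2, and rose or fell is used only for such members. Values with ± are log2 fold changes and their standard errors. CPM values of libraries are the count over the library's total, without the TMM scaling behind the fold changes, so that their ratios can differ from these. Lhcb genes occur as closely similar copies. How reads that fit several copies were counted is not given in the sources used here, so values of single Lhcb genes are less certain than those of the class. Similar copies in the other classes could not be looked for without sequences. Values of single genes there, such as the Psb gene LOC_Os07g05360, may carry the same limit.

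Which members responded to drought in ZH11 seedlings was asked first. Of the 30 members, 27 fell and 1 rose, where 16.9% of all genes tested fell and 26.2% rose. The median log2 fold change of the members was -2.50, against 0.07 over all genes. All 9 Psa genes fell, as did 8 of 9 Lhcb, 5 of 6 Lhca and 5 of 6 Psb genes, with class medians of -2.28 for Psa, -3.23 for Lhcb, -2.68 for Lhca and -2.31 for Psb.

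Among the Lhcb genes, CAB2R (LOC_Os01g41710), a chlorophyll a/b binding protein of the main photosystem II antenna, had 513, 962 and 991 CPM under drought, against 4729, 4195 and 3195 CPM under normal conditions. Every drought library lay below every normal library, and the log2 fold change was -2.75 ± 0.32 (adjusted p = 0.000323). The minor antenna proteins CP29 (LOC_Os07g37240) and CP26 (LOC_Os11g13890), which link the main antenna to the photosystem II core, fell too. CP29 had 485, 945 and 533 CPM under drought, against 5122, 4689 and 3664 CPM (-3.23 ± 0.32). CP26 had 224, 465 and 277 CPM, against 3021, 2892 and 2204 CPM (-3.52 ± 0.32). The largest fall of the class was that of LOC_Os03g39610 (-3.63 ± 0.22), and LOC_Os07g37550, described as a chlorophyll A-B binding protein, fell as well (-3.32 ± 0.18). A further chlorophyll A-B binding protein, LOC_Os01g52240, had 16.7, 136 and 27.1 CPM under drought, against 291, 191 and 77.3 CPM. Its libraries overlapped, and it was not called (-2.11 ± 0.86, adjusted p = 0.0643). Without drought replicate 2, which was the high one, it was (-3.54, adjusted p = 0.00175).

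The Lhca class held both the largest fall and the smallest change. LOC_Os02g52650 had 8.94, 13.4 and 9.80 CPM under drought, against 161, 160.3 and 140.4 CPM under normal conditions (-4.29 ± 0.18, adjusted p = 8.51e-06). LOC_Os09g26810 had 66.7, 83.2 and 86.9 CPM, against 92.8, 99.0 and 70.2 CPM, with overlapping libraries and a difference under 2-fold (-0.59 ± 0.17, adjusted p = 0.0203). Both are low next to the other Lhca genes, which had at least 609 CPM in every library of these groups.

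In photosystem II, oxygen-evolving enhancer protein 1 (LOC_Os01g31690), which stabilizes the manganese cluster that splits water, had 1045, 1238 and 1279 CPM under drought, against 3122, 3083 and 2327 CPM under normal conditions. Its fall (-1.70 ± 0.19) was the smallest of the Psb genes that fell, and that of LOC_Os08g10020 the largest (-2.73 ± 0.19). LOC_Os07g36080, with a domain of oxygen-evolving enhancer protein 3, another extrinsic subunit on the lumen side, fell as well (-2.42 ± 0.24). LOC_Os07g05360 went against its class: it had 54.2, 169 and 81.6 CPM under drought, against 2.32, 0.203 and 0.102 CPM under normal conditions (6.37 ± 1.15, adjusted p = 0.00246). The normal libraries held 251, 18 and 12 counts of it.

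The Psa genes ranged from -1.64 ± 0.21 for LOC_Os12g23200 to -3.14 ± 0.32 for LOC_Os12g08770. Photosystem I subunit II (LOC_Os08g44680), which with subunit IV A docks ferredoxin, had 669.7, 732 and 846 CPM under drought, against 2532, 2439 and 2065 CPM under normal conditions (-2.09 ± 0.17). Subunit IV A (LOC_Os07g25430) and subunit III (LOC_Os03g56670), the docking site of plastocyanin, fell as well (-2.01 ± 0.18 and -2.88 ± 0.19). For each of these subunits, every drought library lay below every normal library. The commonest low count was 2 under drought and 4 under normal conditions in ZH11 seedlings, so that a read pair seems to have been worth more than 1 count and not the same in both groups. With counts divided by these values, 28 members were called as well.

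In DJ seedlings under drought, 29 of the 30 members fell and 0 rose, where 29.1% of all genes tested fell and 25.2% rose. The members' median was -3.51, against -0.14 over all genes. Class medians were -4.42 for Lhcb, -3.06 for Lhca, -3.31 for Psb and -2.88 for Psa. The Lhca gene LOC_Os02g52650 was the member not called: it had 11.8, 8.75 and 11.1 CPM under drought, against 31.5, 24.6 and 27.9 CPM under normal conditions, a difference under 2-fold (-0.87 ± 0.15, adjusted p = 0.000518).

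Lhcb genes showed the widest range. LOC_Os01g52240 had 0.116, 0.0754 and 0.123 CPM under drought, against 219, 170.4 and 281 CPM under normal conditions. These are 5, 3 and 5 counts under drought, so that the fitted value (-10.48 ± 0.29) rests on very few read pairs. CAB2R had 49.9, 44.2 and 50.4 CPM under drought, against 2766, 2479 and 2705 CPM (-5.24 ± 0.15, adjusted p = 2.03e-08). CP26 (-4.96 ± 0.17), CP29 (-4.42 ± 0.22) and LOC_Os07g37550 (-3.69 ± 0.18) fell too. The smallest fall was that of LOC_Os09g12540, a weakly expressed member with 8.46, 7.82 and 9.83 CPM under drought, against 28.9, 27.8 and 30.7 CPM (-1.19 ± 0.12).

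LOC_Os08g33820 fell most among the Lhca genes (-4.34 ± 0.24). LOC_Os09g26810, whose ZH11 libraries overlapped, had 8.86, 4.30 and 4.24 CPM in DJ under drought, against 101, 78.7 and 102 CPM under normal conditions (-3.48 ± 0.26). The Psb gene LOC_Os07g05360 fell in DJ, with 10.5, 16.3 and 20.4 CPM under drought, against 266, 389 and 291 CPM (-3.77 ± 0.27), the largest fall of its class. The smallest was that of LOC_Os08g10020 (-1.13 ± 0.16). Oxygen-evolving enhancer protein 1 (-2.03 ± 0.21) and LOC_Os07g36080 (-3.08 ± 0.13) lay between them. Among the Psa genes, LOC_Os09g30340 fell most, with 20.0, 8.75 and 9.66 CPM under drought, against 506, 424 and 414 CPM (-4.60 ± 0.30). LOC_Os05g48630 fell least (-1.99 ± 0.14), and subunits II, III and IV A fell by amounts between these (-2.67, -2.88 and -3.00).

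The drought responses of both varieties were then compared in 1 fit, as the log2 fold change in DJ minus that in ZH11. The response was lower in DJ for 12 members and higher for 3, where 28.2% of all genes tested were lower and 20.2% higher. The split depends on the scaling: with library totals alone it was 25 lower and 1 higher, since that scaling moves the median over all genes to -1.14, against -0.14 with TMM. The members lowest in DJ relative to ZH11 were LOC_Os07g05360 (-10.12 ± 1.18) and LOC_Os01g52240 (-8.36 ± 1.33), followed by LOC_Os04g38410 (-3.27 ± 0.41), LOC_Os09g26810 (-2.87 ± 0.35) and CAB2R (-2.47 ± 0.33). The value of LOC_Os01g52240 rests on 5, 3 and 5 counts in droughted DJ seedlings. The 3 members with the higher response in DJ were LOC_Os02g52650 (3.44 ± 0.23), LOC_Os09g12540 (1.80 ± 0.17) and LOC_Os08g10020 (1.62 ± 0.22). These 3 were among the 23 members called lower in unstressed DJ than in unstressed ZH11 seedlings. So was CAB2R, whose drought response was lower in DJ. LOC_Os08g10020 had 1029, 777 and 1007 CPM in DJ and 1629, 1492 and 1820.3 CPM in ZH11 under drought, and 3205, 2879 and 2873 CPM in DJ and 8403, 8102 and 7682 CPM in ZH11 under normal conditions. The commonest low count was 4 in the ZH11 normal libraries and 2 in the other 9, which moves with this comparison. With counts divided by these values, 15 members were called as well.

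**Figure D2:**
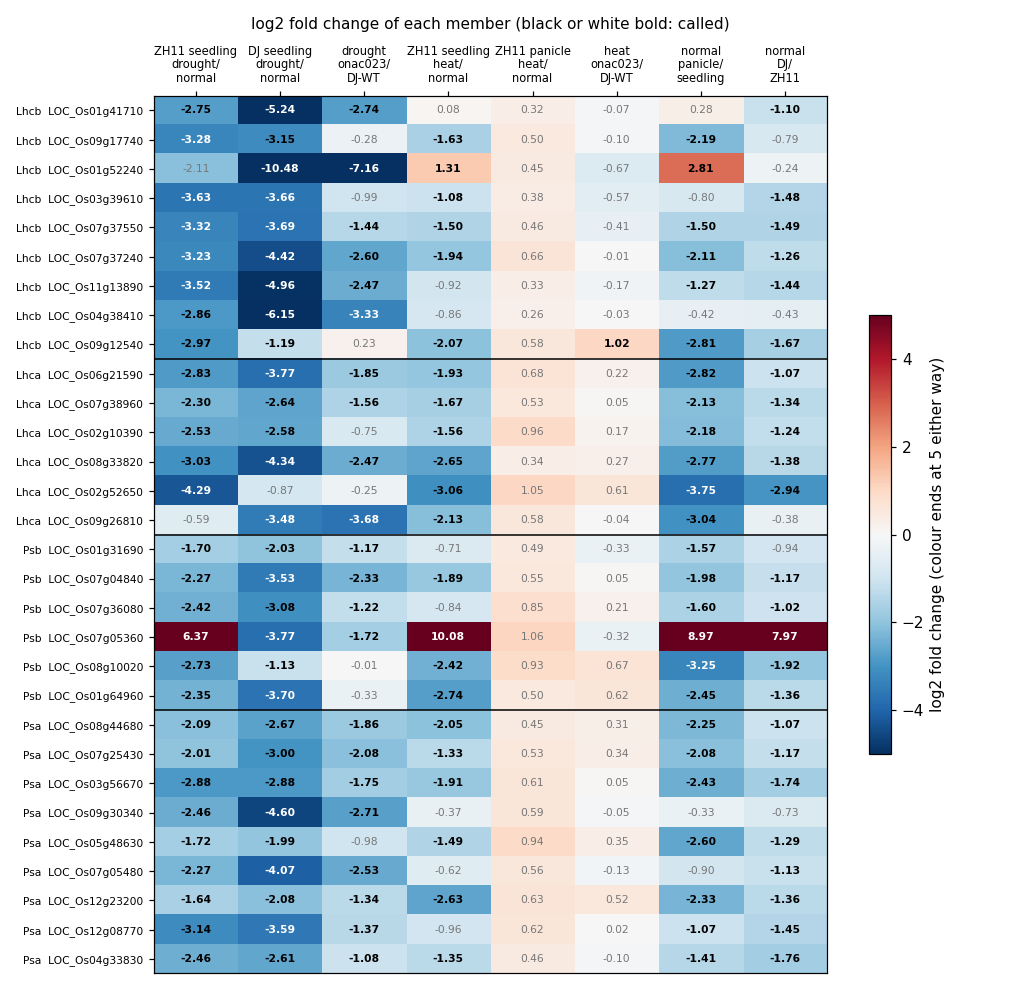
Log2 fold change of each of the 30 members (rows, by class) in 8 comparisons (columns), with the group above the stroke over the group below it. Bold values were called. Drought columns are blue in nearly every row, from -10.48 for LOC_Os01g52240 in DJ seedlings, whereas the panicle heat column is pale, from 0.26 to 1.06.

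Whether the members depended on ONAC023 under drought was asked in the line experiment. Against the libraries labelled DJ-WT, 22 of the 30 members were lower in onac023 and 0 were higher, where 18.1% of all genes tested were lower and 7.21% higher. The median was -1.64 for the members and -0.09 over all genes. Of the classes, 8 of 9 Psa, 6 of 9 Lhcb, 4 of 6 Lhca and 4 of 6 Psb genes were lower, with medians of -1.75, -2.47, -1.70 and -1.20.

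CAB2R had 59.7, 54.8 and 57.0 CPM in onac023, against 392, 525 and 567 CPM in DJ-WT (-2.74 ± 0.14, adjusted p = 1.47e-05). LOC_Os01g52240 had 0.365, 0.0748 and 0.635 CPM (16, 3 and 27 counts) in onac023, against 14.4, 79.6 and 109 CPM in DJ-WT (-7.16 ± 0.91). CP29 (-2.60 ± 0.22), CP26 (-2.47 ± 0.29) and LOC_Os07g37550 (-1.44 ± 0.07) were lower too. LOC_Os09g12540 was against its class without passing the test, with 10.9, 9.70 and 10.4 CPM in onac023 and 10.9, 11.3 and 12.1 CPM in DJ-WT (0.23 ± 0.10, adjusted p = 0.0944). With library totals alone its sign turned.

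In the Lhca class, LOC_Os09g26810 had 3.58, 2.34 and 4.07 CPM in onac023, against 48.9, 60.5 and 56.9 CPM in DJ-WT (-3.68 ± 0.19, adjusted p = 1.54e-05), and LOC_Os02g52650 did not pass (-0.25 ± 0.10). In the Psb class, LOC_Os07g04840 was lowest (-2.33 ± 0.14), oxygen-evolving enhancer protein 1 had 349, 270.0 and 343 CPM in onac023, against 905, 939.6 and 960.2 CPM in DJ-WT (-1.17 ± 0.10), LOC_Os07g36080 was lower (-1.22 ± 0.17), and LOC_Os08g10020 did not pass (-0.01 ± 0.11). Photosystem I subunit II had 123, 100 and 116 CPM in onac023, against 554, 501 and 539 CPM in DJ-WT (-1.86 ± 0.09). Subunit IV A (-2.08 ± 0.16), subunit III (-1.75 ± 0.10) and LOC_Os09g30340 (-2.71 ± 0.20, the largest of the class) were also lower. LOC_Os05g48630 passed the test with a difference under 2-fold (-0.98 ± 0.09).

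These differences rest on the libraries labelled DJ-WT. Against droughted DJ seedlings instead, 0 of 29 members tested were lower in onac023 and 1 was higher, with a median of 0.06. At an unadjusted p under 0.05, 9 members differed. Of all genes tested, 0.923% were higher and 0.357% lower in this setting. CAB2R had 49.9, 44.2 and 50.4 CPM in DJ seedlings under drought, next to the 59.7, 54.8 and 57.0 CPM of onac023, and its log2 difference was 0.35 (adjusted p = 0.0661). The member called was the Psb gene LOC_Os01g64960, with 128, 196 and 179 CPM in onac023, against 48.0, 35.8 and 38.9 CPM in DJ seedlings and 227, 311 and 285 CPM in DJ-WT. The libraries of onac023 and DJ seedlings overlapped for 26 of 30 members, and 27.1% of all genes tested did not overlap. LOC_Os01g52240, with at most 27 counts in any of these libraries, was too low to be tested. For 28 members the DJ-WT mean fell between those of the droughted DJ and ZH11 seedlings. The share of all genes with this order is not given here, so it is not read as particular to the members. These DJ seedlings belong to the stress experiment, so line and experiment cannot be told apart here.

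**Figure D3:**
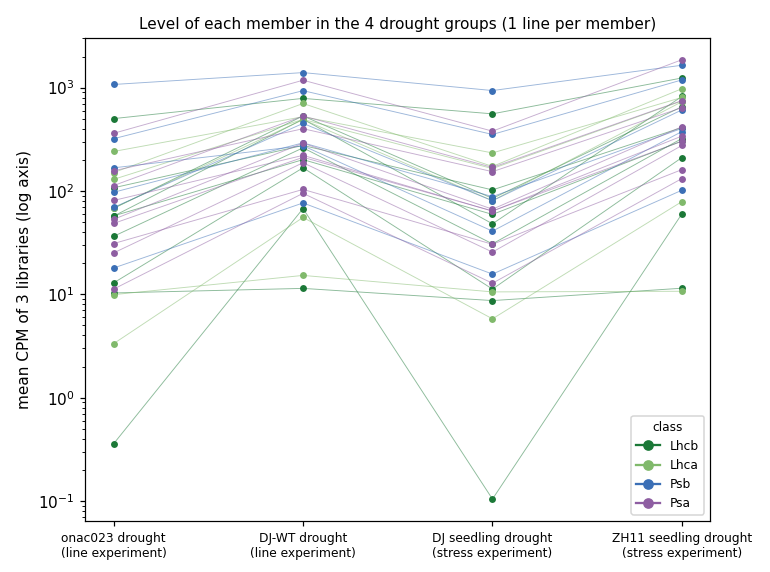
Mean CPM of each member (log axis) in the 4 drought groups, 3 libraries each, with 1 line per member coloured by class. The libraries of onac023 and DJ seedlings overlap for 26 of 30 members. The means of DJ-WT lie between those of DJ and ZH11 seedlings for 28 of 30 members, an order whose share over all genes is not given.

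In ZH11 seedlings under heat, 20 of the 30 members fell and 2 rose, where 24.5% of all genes tested fell and 31.4% rose. The median was -1.53 for the members and 0.09 over all genes. All 6 Lhca genes fell (median -2.03), as did 6 of 9 Psa (-1.35), 5 of 9 Lhcb (-1.08) and 3 of 6 Psb genes (-1.37). Heat replicate 1 had the highest CPM of the 3 heat libraries for 21 of 30 members, a pattern whose share over all genes is not given. Without this library 21 members were called.

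CAB2R was not called. It had 5605, 3163 and 3603 CPM under heat and 4729, 4195 and 3195 CPM under normal conditions, with overlapping libraries (0.08 ± 0.29, adjusted p = 0.811). LOC_Os01g52240 rose against its class, with 534, 414 and 385 CPM under heat, against 291, 191 and 77.3 CPM (1.31 ± 0.47, adjusted p = 0.0396). This call was lost on leaving out any heat library or normal replicate 2 or 3 (adjusted p up to 0.0978). CP29 had 1288, 1031 and 1030.1 CPM under heat, against 5122, 4689 and 3664 CPM (-1.94 ± 0.25). LOC_Os07g37550 fell (-1.50 ± 0.27), CP26 differed by less than 2-fold (-0.92 ± 0.22, adjusted p = 0.00875), and LOC_Os09g12540 had the largest fall of the class (-2.07 ± 0.24).

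The Lhca genes ranged from -1.56 ± 0.21 for LOC_Os02g10390 to -3.06 ± 0.14 for LOC_Os02g52650. LOC_Os09g26810 fell under heat, with 38.0, 9.93 and 11.2 CPM, against 92.8, 99.0 and 70.2 CPM (-2.13 ± 0.49). In the Psb class, LOC_Os07g05360 rose most of all members, with 649, 1193 and 844 CPM under heat, against 2.32, 0.203 and 0.102 CPM (10.08 ± 1.48, adjusted p = 0.00099). LOC_Os01g64960 fell most of the class (-2.74 ± 0.46), while oxygen-evolving enhancer protein 1 (-0.71 ± 0.24) and LOC_Os07g36080 (-0.84 ± 0.21) passed the test with differences under 2-fold. Photosystem I subunit II had 576, 514 and 521 CPM under heat, against 2532, 2439 and 2065 CPM (-2.05 ± 0.20). Subunit III (-1.91 ± 0.19) and subunit IV A (-1.33 ± 0.25) fell as well, LOC_Os12g23200 fell most (-2.63 ± 0.25) and LOC_Os09g30340 changed least and was not called (-0.37 ± 0.22).

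Heat and drought were compared directly in ZH11 seedlings. Relative to drought, 15 members were higher under heat and 2 lower, where 18.1% of all genes tested were called in each direction, and the median was 1.03 for the members and -0.004 over all genes. The Lhcb class made up 8 of the 15, together with 4 Psa, 2 Psb and 1 Lhca gene. CAB2R (2.80 ± 0.41), CP26 (2.58 ± 0.33), LOC_Os07g37550 (1.78 ± 0.27), CP29 (1.26 ± 0.32) and LOC_Os01g52240 (3.40 ± 0.79) were higher under heat. LOC_Os07g36080 (1.55 ± 0.27) and LOC_Os07g05360 (3.68 ± 0.54) were the 2 Psb genes. The 2 members lower under heat were the Lhca gene LOC_Os09g26810 (-1.57 ± 0.47) and the Psa gene LOC_Os12g23200 (-1.03 ± 0.29), which had 869, 534 and 575 CPM under heat, against 1738, 1582 and 2266 CPM under drought. Oxygen-evolving enhancer protein 1 (0.97 ± 0.27) and photosystem I subunits II, III and IV A (0.01, 0.94 and 0.65) were not called. LOC_Os09g26810 was no longer called without any 1 of heat replicates 2 and 3 and drought replicates 1 to 3, and LOC_Os12g23200 without any 1 of heat replicates 2 and 3 and drought replicates 1 and 3. The call of CP29 was lost without drought replicate 1 or 3. Without drought replicate 1, 12 members were called, all higher under heat, and without heat replicate 1, 21 were called. The commonest low count was 4 in the heat libraries and 2 in the drought libraries, which moves with this comparison. With counts divided by these values, 359 of 360 member results over all comparisons kept their call status, and 1 call was lost.

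In ZH11 panicles under heat, 0 of the 30 members were called by the edgeR test, where 8.57% of all genes tested rose and 1.69% fell. With 2 libraries per group, a p that misses the threshold does not show equal levels. DESeq2 called 2, and 9 members had an unadjusted p under 0.05 in edgeR. All 30 log2 fold changes were above 0, from 0.26 ± 0.25 for the Lhcb gene LOC_Os04g38410 to 1.06 ± 0.32 for LOC_Os07g05360, with a median of 0.55, against -0.005 over all genes. The sign depends on the scaling, since with library totals alone 21 of 30 were above 0 and the median was 0.07. Class medians were 0.45 for Lhcb, 0.63 for Lhca, 0.70 for Psb and 0.59 for Psa.

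CAB2R had 5531 and 6535 CPM in panicles under heat and 7211 and 6166 CPM under normal conditions (0.32 ± 0.30, adjusted p = 0.503). The libraries overlapped, as they did for 24 of the 30 members. For the other 6, both heat libraries were higher, as for 18.4% of all genes tested. LOC_Os02g52650 had 25.1 and 20.6 CPM under heat and 18.6 and 12.4 CPM under normal conditions, without overlap (1.05 ± 0.29, adjusted p = 0.079). CP29 (0.66 ± 0.28), CP26 (0.33 ± 0.26), oxygen-evolving enhancer protein 1 (0.49 ± 0.25) and photosystem I subunit II (0.45 ± 0.24) were not called.

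The difference between the heat response of panicles and that of seedlings was tested in 1 fit. It was higher in panicles for 24 members and lower for 1, where 18.8% of all genes tested were higher and 23.4% lower, and the median difference was 2.11, against -0.14 over all genes. All 6 Lhca genes were higher in panicles, the largest being LOC_Os02g52650 (4.06 ± 0.32, adjusted p = 1.93e-05), with 5 of 6 Psb, 7 of 9 Psa and 6 of 9 Lhcb genes. CP29 (2.55 ± 0.38), CP26 (1.20 ± 0.34), oxygen-evolving enhancer protein 1 (1.14 ± 0.36) and photosystem I subunit II (2.45 ± 0.31) were among them. The call of CP26 was lost without panicle normal replicate 2 or seedling normal replicate 1 or 2, and that of oxygen-evolving enhancer protein 1 without any 1 of these, panicle heat replicate 1 or seedling heat replicate 3. The member with the lower response was LOC_Os07g05360 (-9.08 ± 1.61), and CAB2R was not called (0.18 ± 0.43, adjusted p = 0.773). LOC_Os01g52240 was below 0 without being called (-0.92 ± 0.68).

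**Figure D4:**
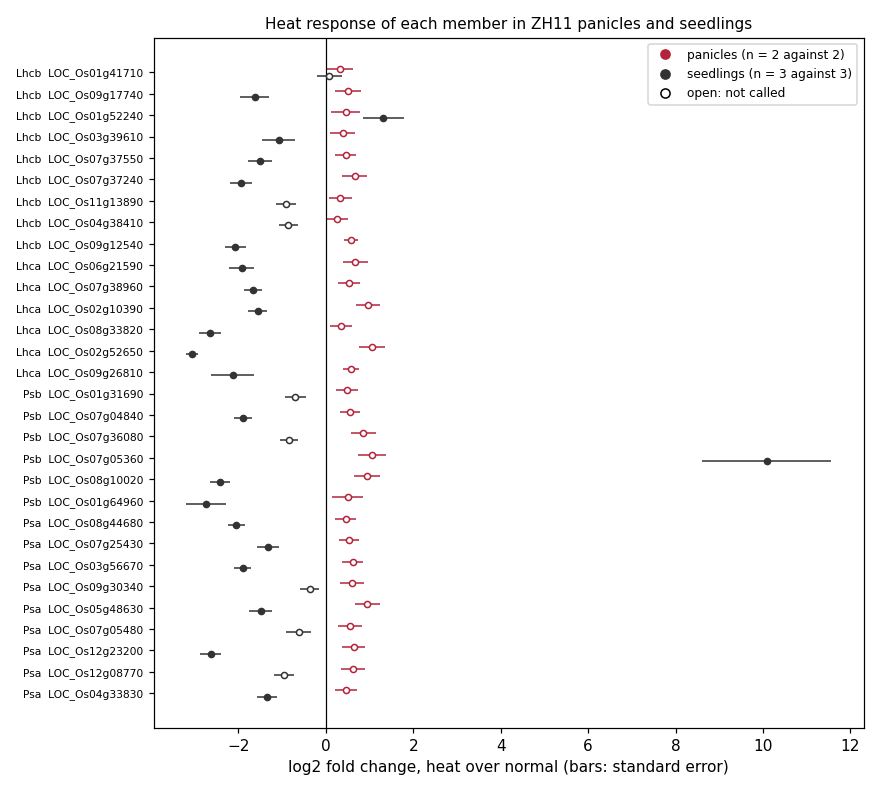
Log2 fold change under heat over normal conditions (horizontal axis, bars are standard errors) of each member in ZH11 panicles (red) and ZH11 seedlings (black), with open points for members not called. The panicle values lie between 0.26 and 1.06, and 27 of the 30 seedling values lie below 0.

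Under normal conditions, panicles held lower levels than seedlings of the same variety for 23 of the 30 members and higher levels for 2, where 24.3% of all genes tested were lower and 33.8% higher. The members' median was -2.09, against 0.17 over all genes. All 6 Lhca genes were lower (median -2.80), with 7 of 9 Psa (-2.08), 5 of 6 Psb (-1.79) and 5 of 9 Lhcb genes (-1.27).

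CAB2R and LOC_Os01g52240 did not follow their class. CAB2R had 7211 and 6166 CPM in panicles and 4729, 4195 and 3195 CPM in seedlings. Its panicle libraries lay above, but the difference did not pass the test (0.28 ± 0.23, adjusted p = 0.294). LOC_Os01g52240 had 2265 and 1316 CPM in panicles, against 291, 191 and 77.3 CPM in seedlings (2.81 ± 0.56, adjusted p = 0.00367). CP29 (-2.11 ± 0.27), LOC_Os07g37550 (-1.50 ± 0.21) and CP26 (-1.27 ± 0.24) were lower in panicles, and LOC_Os09g12540 lowest of the class (-2.81 ± 0.08). In the photosystem I antenna, LOC_Os02g52650 had 18.6 and 12.4 CPM in panicles, against 161, 160.3 and 140.4 CPM in seedlings (-3.75 ± 0.21), and LOC_Os07g38960 was the least different (-2.13 ± 0.23).

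LOC_Os07g05360 had 745 and 479 CPM in panicles, against 2.32, 0.203 and 0.102 CPM in seedlings (8.97 ± 1.07). The other Psb genes were lower in panicles, from -1.57 ± 0.23 for oxygen-evolving enhancer protein 1 to -3.25 ± 0.23 for LOC_Os08g10020, with LOC_Os07g36080 at -1.60 ± 0.23. Photosystem I subunits II, III and IV A were lower in panicles (-2.25, -2.43 and -2.08). LOC_Os05g48630 was the lowest of the class (-2.60 ± 0.24), and LOC_Os09g30340 was not called (-0.33 ± 0.24).

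Unstressed DJ seedlings had lower levels than unstressed ZH11 seedlings for 23 of the 30 members and a higher level for 1, where 13.9% of all genes tested were lower and 24.6% higher. The median was -1.25 for the members and 0.07 over all genes. This count depends on the scaling: with library totals alone, 6 members were lower and 1 higher, with a member median of -0.76 and an all-gene median of 0.55. Class medians were close to each other (-1.26 for Lhcb, -1.29 for Lhca, -1.10 for Psb and -1.29 for Psa).

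CAB2R had 2766, 2479 and 2705 CPM in DJ, against 4729, 4195 and 3195 CPM in ZH11 (-1.10 ± 0.17), which fell short of 2-fold without ZH11 normal replicate 1 (-0.95). CP29 (-1.26), CP26 (-1.44) and LOC_Os07g37550 (-1.49) were lower in DJ, and LOC_Os09g12540 the most among Lhcb genes (-1.67), while LOC_Os01g52240 was not called (-0.24 ± 0.43). LOC_Os02g52650 had 31.5, 24.6 and 27.9 CPM in DJ, against 161, 160.3 and 140.4 CPM in ZH11 (-2.94 ± 0.13, adjusted p = 1.16e-06), and the other low Lhca gene, LOC_Os09g26810, was not called (-0.38 ± 0.17). LOC_Os07g05360 had 266, 389 and 291 CPM in DJ, against 2.32, 0.203 and 0.102 CPM in ZH11 (7.97 ± 0.87, adjusted p = 7.56e-05). It was the member called higher. Oxygen-evolving enhancer protein 1 differed by less than 2-fold (-0.94, called lower without ZH11 replicate 3 or DJ replicate 1), LOC_Os07g36080 was lower (-1.02, short of 2-fold without ZH11 replicate 1 or 2 or DJ replicate 2 or 3) and LOC_Os08g10020 lowest of the class (-1.92). Photosystem I subunits II, III and IV A were lower in DJ (-1.07, -1.74 and -1.17), with LOC_Os04g33830 (-1.76) and LOC_Os09g30340 (-0.73) at the ends of the class. Subunit II fell just short of 2-fold without ZH11 normal replicate 1 (-0.996). The commonest low count was 2 in the DJ libraries and 4 in the ZH11 libraries, and with counts divided by these values 23 members were called.

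Under heat, 1 of the 30 members was called between onac023 and DJ-WT, where 2.24% of all genes tested were higher and 9.04% lower in onac023. The series has no heated DJ seedlings, so this comparison rests on libraries labelled DJ-WT that did not match their label in full. The median was 0.04 for the members and -0.03 over all genes, and 16 values were above 0 (5 with library totals alone). The member called was the Lhcb gene LOC_Os09g12540, with 32.1, 35.8 and 20.6 CPM in onac023, against 20.2, 18.3 and 18.0 CPM in DJ-WT (1.02 ± 0.20, adjusted p = 0.0135). It goes against its class, in which the other 8 genes were below 0 in this fit. Same-numbered heat libraries of both lines deviated together in replicates 1 and 2 (correlations 0.38 and 0.33) and hardly in replicate 3 (0.11). This pairing is drawn from the data alone. With the replicate number as a block 0 members were called, since LOC_Os09g12540 then differed by slightly less than 2-fold (log2 fold change 0.995, adjusted p = 0.00549). With the block 4 more members had an adjusted p under 0.05 in edgeR, all higher in onac023 by less than 2-fold: LOC_Os01g64960 (0.90, adjusted p = 0.0397), LOC_Os02g52650 (0.70, adjusted p = 0.0327), LOC_Os08g10020 (0.67, adjusted p = 0.0151) and LOC_Os12g23200 (0.54, adjusted p = 0.0243). Without DJ-WT replicate 1, which stood apart, 3 members were called higher: LOC_Os01g64960 (1.60) and LOC_Os02g52650 (1.07) joined it. Without DJ-WT replicate 3, onac023 replicate 1 or onac023 replicate 2, 0 were called.

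CAB2R had 3507, 2362 and 2624 CPM in onac023 and 6412, 2383 and 2908 CPM in DJ-WT, overlapping (-0.07 ± 0.40, adjusted p = 0.924). LOC_Os01g52240 was the lowest value of all members without passing the test (-0.67 ± 0.48, adjusted p = 0.361). CP29 (-0.01), CP26 (-0.17) and LOC_Os07g37550 (-0.41) were not called. Oxygen-evolving enhancer protein 1 had 1139, 1069 and 862 CPM in onac023 and 2079.6, 1435 and 1521 CPM in DJ-WT, without overlap but not called (-0.33 ± 0.23, adjusted p = 0.349). Photosystem I subunit II (0.31 ± 0.28), subunit IV A (0.34 ± 0.19) and subunit III (0.05 ± 0.41) were not called either. A p that misses the threshold does not show equal levels, and the standard errors of the 30 members were 0.19 to 0.53 in this fit and 0.11 to 0.26 with the replicate block.

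The difference between the line effect under heat and that under drought was tested directly. It was above 0 for all 30 members, and 20 were called higher under heat and 0 lower, where 14.7% of all genes tested were higher and 8.91% lower. The median was 1.76 for the members and 0.08 over all genes. LOC_Os01g52240 (6.55 ± 1.10), LOC_Os09g26810 (3.70 ± 0.63), CAB2R (2.73 ± 0.47), CP29 (2.65 ± 0.40), CP26 (2.36 ± 0.49) and photosystem I subunits II (2.23 ± 0.33), III (1.86 ± 0.49) and IV A (2.48 ± 0.25) were called. The value of LOC_Os01g52240 rests on 16, 3 and 27 counts in onac023 under drought. Oxygen-evolving enhancer protein 1 passed with a difference under 2-fold (0.90 ± 0.25), and the smallest value was that of LOC_Os09g17740 (0.24 ± 0.52). Without DJ-WT heat replicate 1, 27 members were called. With droughted DJ seedlings standing in for droughted DJ-WT, a setting chosen after seeing the data, 0 of 30 members were called by edgeR, 3 had an unadjusted p under 0.05, and the median was 0.01. Of all genes tested, 2.77% were higher and 7.18% lower in that setting. Its drought control came from the stress experiment and its heat control, DJ-WT, from the line experiment. Line effect and experiment cannot be told apart there.

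**Figure D5:**
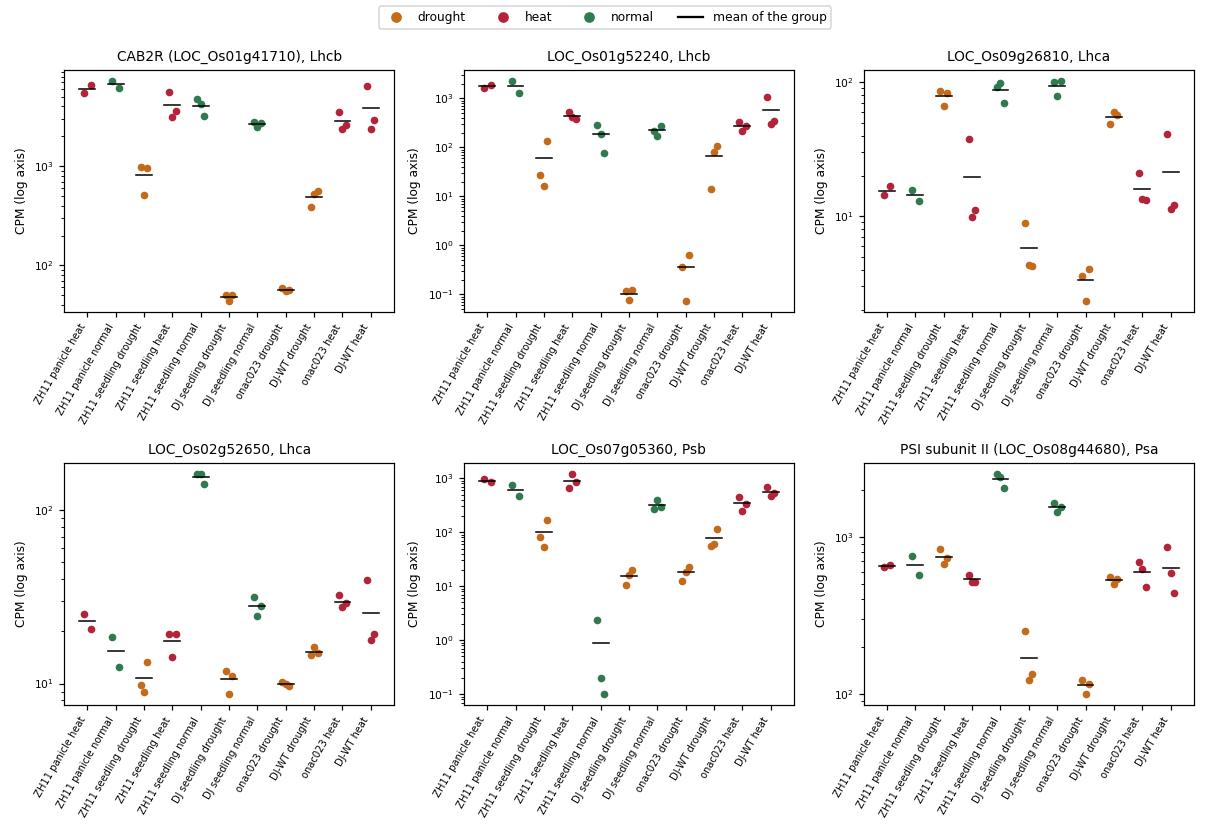
CPM (log axis) of 6 members in every library of the 11 groups, with points coloured by condition and a line at each group mean. In the drought libraries of DJ seedlings and onac023, CAB2R is at 44.2 to 59.7 CPM and LOC_Os01g52240 at 0.0748 to 0.635 CPM, LOC_Os07g05360 is at 0.102 to 2.32 CPM in ZH11 seedlings under normal conditions and at 266 to 389 CPM in those of DJ, and LOC_Os09g26810 stays at 66.7 to 86.9 CPM in ZH11 seedlings under drought.

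Other genes of the photosynthetic apparatus were read from lists. Several of their genes stand among those the study lists as different between onac023 and DJ-WT, so their direction in that comparison is not independent evidence. Of 8 genes of electron transport and ATP synthase, among them plastocyanin (LOC_Os06g01210) and the iron-sulfur subunit of the cytochrome b6-f complex (LOC_Os07g37030), 8 fell in ZH11 under drought (median -2.12), 8 in DJ under drought (-3.30) and 7 in ZH11 seedlings under heat (-2.92). In panicles under heat 0 were called by edgeR (median 0.75, 7 with an unadjusted p under 0.05) and 1 by DESeq2. In onac023 against DJ-WT, 8 were lower under drought (-2.27), and 1 was higher under heat (0.31). Of 3 genes for the targeting of antenna proteins to the thylakoid, 3 were lower in onac023 than in DJ-WT under drought. PGL3 (LOC_Os03g03990), the SRP43 subunit of the chloroplast signal recognition particle, changed by -2.50 ± 0.17 there, by -4.08 ± 0.16 in DJ seedlings under drought and, uncalled, by -0.54 ± 0.17 in ZH11 seedlings under drought. With DJ seedlings in place of DJ-WT under drought, edgeR called 0 of the 8 and 0 of the 3, with 3 and 0 at an unadjusted p under 0.05.

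The 3 early light-induced proteins, relatives of the antenna that accumulate under light stress, did not move with the members in the line experiment or in panicles. In onac023 against DJ-WT they were higher under drought (3 of 3, median 1.82) and under heat (3 of 3, 1.72), and in panicles they rose under heat (3 of 3, 6.20). In ZH11 seedlings 3 of 3 fell under drought (-3.69) and 2 of 3 under heat (-1.41), and in DJ seedlings under drought 1 rose and 1 fell (-0.66). With DJ seedlings in place of DJ-WT under drought, edgeR called 0 of 3 (median 0.79, all 3 with an unadjusted p under 0.05). The 3 small subunit genes of Rubisco, markers of leaf mesophyll, moved with the members under drought: their summed level was 3363 to 7350 CPM in ZH11 seedlings under drought, against 11584 to 14936 CPM under normal conditions. In DJ seedlings it was 149 to 259 CPM under drought, against 7133 to 9997 CPM. It was 120 to 206 CPM in onac023 under drought, against 2412 to 5374 CPM in DJ-WT, and 4285 to 5877 CPM in onac023 under heat, against 3758 to 10209 CPM in DJ-WT. In panicles it was 2250 to 2520 CPM under heat, against 834 to 1807 CPM under normal conditions. These did not overlap, whereas the summed shares of the members in heated and normal panicles did. The summed level in heated ZH11 seedlings is not given here. The heat response of OsRBCS2, OsRBCS3 and OsRBCS4 was higher in ZH11 panicles than in seedlings (log2 differences 3.46, 2.19 and 3.06, all called). Of all genes tested, 18.8% were called higher there. The part of the amount of mesophyll in the members' results was not tested.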

How the data were processed

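RNA-seq libraries of rice were analysed, 19 in the stress experiment and 12 in the line experiment, and 18 chromatin immunoprecipitation samples were not analysed here. The deposited tables hold estimated counts per gene model of the MSU annotation, all whole numbers, with no normalization by the authors. The study's methods name fastp, STAR and StringTie, and the submitters' processing notes name HISAT2, StringTie and DESeq2. By those methods StringTie took only read pairs with a single mapping position to assemble transcripts. The tool that made the counts, and whether it kept reads that fit several genes, are not given in the sources used here. The commonest low count is 4 in the ZH11 panicle libraries and the ZH11 seedling libraries under normal conditions and heat, and 2 in the other libraries, so a count is not 1 read and precision is lower than the counts imply.

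Groups were taken from the labels. Each comparison was fitted on the libraries of its own groups with edgeR 4.0.16 in R 4.3.3 (filterByExpr, TMM, quasi-likelihood F-test), over all gene models that passed the filter, with Benjamini-Hochberg adjustment over all of them. Calls needed an adjusted p under 0.05 and more than a 2-fold change. Standard errors are the log2 fold change over the root of F. Interactions are differences between log2 fold changes in a joint fit. The fits were tested on simulated data in which far fewer genes changed than in these data, in equal numbers up and down. Such data cannot judge the scaling where many genes change or the directions are uneven. Alternatives were DESeq2 1.42.0, RLE and upper quartile scaling, library totals alone, no filter on low counts, all libraries of a table in 1 fit, counts divided by the commonest low count, a replicate block, each library left out, and DJ seedlings in place of DJ-WT under drought. Same-numbered libraries of onac023 and DJ-WT under heat deviated together in replicates 1 and 2, with correlations of 0.38 and 0.33, and hardly in replicate 3 (0.11). Their numbers were taken to pair them on this evidence from the data alone, and the blocked value stands beside that result.

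The members, the classes and the other lists were chosen with earlier results of these data known. Named in a comparison are the members with the highest and the lowest fold change of each class, those the study's tables describe and those that went against their class. The identifiers have 0 matches in the RefSeq gene table used here (assembly ASM3414082v1), so no positions or sequences are given.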

Additional observations from a re-analysis of the deposited data

Results flagged for a closer look

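In 3 comparisons the effect of a treatment or line differed between groups by a test of the difference itself. The effect of onac023 over DJ-WT was higher under heat than under drought for 20 members and by most for LOC_Os01g52240 (log2 difference 6.55), a count that was 0 with DJ seedlings in place of DJ-WT under drought. The value of LOC_Os01g52240 rests on 16, 3 and 27 counts in onac023 under drought. The drought response was higher in DJ than in ZH11 for 3 members, by most for LOC_Os02g52650 (3.44), and lower for 12, by most for LOC_Os07g05360 (-10.12). The heat response was higher in panicles than in seedlings of ZH11 for 24 members, by most for LOC_Os02g52650 (4.06), and lower for 1, LOC_Os07g05360 (-9.08). Both values of LOC_Os07g05360 include its low level in ZH11 seedlings under normal conditions, where the 3 libraries held 251, 18 and 12 counts.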

How the results depend on the processing

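Scaling by library totals alone moved the median of all genes by 0.067 to 0.998 on the log2 scale, depending on the comparison, so directions here are relative to the median gene. Under that scaling 7 members were called between DJ and ZH11 under normal conditions (24 with TMM), 26 in the difference between their drought responses (15) and 0 between onac023 and DJ-WT under heat (1). With no fold threshold and with the other scalings, the counts stayed within 1.5 times in every comparison. In panicles under heat, where edgeR called 0 members, DESeq2 called 2, the replicate block 2 and all libraries in 1 fit 1. The replicate block gave 0 members between onac023 and DJ-WT under heat and moved no other count by over 1.5 times. In the other comparisons same-numbered libraries share only a number.

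Leaving out 1 library gave 28 to 29 members called for drought and 20 to 23 for heat in ZH11 seedlings, 12 to 21 between heat and drought, 29 for drought in DJ, 0 to 1 for heat in panicles, 24 to 27 between panicles and seedlings, 19 to 25 between DJ and ZH11, 21 to 24 and 0 to 3 between onac023 and DJ-WT under drought and heat, and 19 to 27, 14 to 17 and 21 to 27 in the differences between lines, varieties and organs. Where 1 panicle library was left, it was assumed to vary like the other group.

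With DJ seedlings in place of DJ-WT, 1 member was called under drought. In the difference between heat and drought 0 were called, a setting chosen after seeing the data. Members called in either setting that were below 0 against DJ-WT and then above 0 under drought were LOC_Os01g41710 (0.35), LOC_Os07g37550 (0.063), LOC_Os11g13890 (0.35), LOC_Os04g38410 (0.30), LOC_Os07g36080 (0.24), LOC_Os07g05360 (0.29), LOC_Os01g64960 (2.15), LOC_Os07g05480 (0.081), LOC_Os12g23200 (0.045), LOC_Os12g08770 (0.13) and LOC_Os04g33830 (0.44). Called differences between heat and drought that turned below 0 in that setting were those of LOC_Os01g41710 (-0.42), LOC_Os01g52240 (-2.54), LOC_Os11g13890 (-0.53), LOC_Os04g38410 (-0.34), LOC_Os07g36080 (-0.032), LOC_Os07g05360 (-0.61), LOC_Os07g05480 (-0.22) and LOC_Os12g08770 (-0.11).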
